A study of Drosophila melanogaster with 16 samples.

Results

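The genes described here are 8 genes of the ventral midline and of the epidermal growth factor (EGF) receptor pathway, sim, rho, vn, spi, aos, pnt, Egfr and sty, chosen by FlyBase symbol from the 17753 genes of the count table. All 8 were found by identifier and all 8 passed the filter on low counts, which kept 12398 genes. Total RNA of Drosophila melanogaster embryos was counted in 16 libraries, 4 genotypes at 2 stages with 2 libraries in each of the 8 groups. Each library came from a pool of 50 whole embryos sorted by hand after 1 h of egg laying and 2 h of ageing at 25 °C. The stages were 7 to 8 (St7-8), during gastrulation and germ band extension, and nuclear cycle 14 (NC14, stage 5), when the embryo cellularizes. The genotypes were wm4h;JasperSu113/JasperSu113 (Su113), wm4h;JasperSu140/JasperSu140 (Su140), embryos homozygous for Su(var)3-906 on wm4h (Su(var)3-9) and the control wm4h;+/+ (wm4h). Every group, the control included, thus carries wm4h, an X chromosome inversion that brings w, a gene for eye pigment, close to heterochromatin and so makes its activity variegated. Jasper encodes a chromatin protein that acts with the kinase JIL-1, and the product of Su(var)3-9 methylates histone H3 in heterochromatin. The labels do not say what the Jasper alleles lack.

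The mesectoderm is the strip of cells on each side of the mesoderm that meets at the ventral midline during gastrulation and gives rise to the midline of the nervous system. The transcription factor encoded by sim directs its fate, and Notch signalling together with the ventral factors dl and twi switches sim on there. The midline and the ventral neurectoderm next to it signal through the EGF receptor. The ligand precursor encoded by spi is cut by the rho protease and then released, whereas vn encodes a secreted ligand that needs no such cut. Egfr encodes the receptor, which acts through the Ras and MAP kinase cascade on pnt, an ETS transcription activator. The products of aos, a secreted protein that binds the Spi ligand, and of sty, an intracellular protein, restrain the pathway, and both genes are known targets of it.

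In dm6 coordinates, sim (FBgn0004666) lies at 3R:13057755-13078124 and pnt (FBgn0003118) at 3R:23290231-23346167. On 3L are rho (FBgn0004635, 3L:1463811-1468944), sty (FBgn0014388, 3L:3401153-3424935), vn (FBgn0003984, 3L:5813338-5845664) and aos (FBgn0004569, 3L:16470386-16483650). The gene spi (FBgn0005672) lies at 2L:19567900-19577315 and Egfr (FBgn0003731) at 2R:21522420-21559977. No exon of these genes overlapped an exon of another annotated gene. The exons of a gene together measured between 1817 bp in spi and 6947 bp in Egfr.

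Library totals were 43466130 to 92790237 counts, so that 3 counts corresponded to between 0.0299 and 0.0573 CPM, counts scaled to a common library size after TMM correction for composition. The transcript of Jasper itself stood at 98.8 to 170 CPM and that of Su(var)3-9 at 62.8 to 167 CPM over the 16 libraries. Against wm4h, neither transcript was called in a mutant at either stage (lowest adjusted p by edgeR's quasi-likelihood test 0.129 for Jasper and 0.228 for Su(var)3-9), so the counts do not check the genotype labels. Markers of ovary and adult tissue summed to 1.48 to 7.39 CPM per library, with 5 of 10 listed genes tested, and 1 to 4 of the 9 in the table had a count of 0 in a given library.

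Some libraries stood apart from their stage label. Markers of cellularization (5 tested of 7 listed) summed to 5314 CPM in the second wm4h library at St7-8 and to 1718 CPM in the first, against 4019 and 4834 CPM in wm4h at NC14. In Su(var)3-9 the same markers summed to 139.7 and 131.2 CPM at St7-8, and the 1 other marker in the table, Sry-alpha, had no count in any library. In the second Su113 library at St7-8 a list of 14 later-zygotic markers (segment polarity, neural, Hox and mesoderm genes) summed to 476.7 CPM, against 960.9 in the first. Maternal transcripts were higher in the second library of both pairs, with 2038 and 3509 CPM in the first and second Su113 libraries and 1995 and 3561 CPM in the first and second wm4h libraries. For the 8 genes, counts of calls at St7-8 and the values of those called against wm4h are therefore also given without these second libraries. Calls of other pathway genes and of marker lists at St7-8 are given with all libraries only.

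Between the 8 groups sim had the widest range of levels and Egfr the narrowest. The highest group mean was 29.0-fold the lowest for sim, 6.50-fold for aos, 6.38-fold for sty, 5.75-fold for pnt, 4.70-fold for vn, 3.41-fold for spi, 3.24-fold for rho and 2.09-fold for Egfr. The group with the highest mean was Su(var)3-9 at St7-8 for sim, vn, spi, aos, pnt and sty, wm4h at NC14 for rho and Su113 at NC14 for Egfr. The lowest mean was that of Su140 at NC14 for sim, vn, aos, pnt and sty, and that of Su113 at St7-8 for rho, spi and Egfr.

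**Figure D1:**
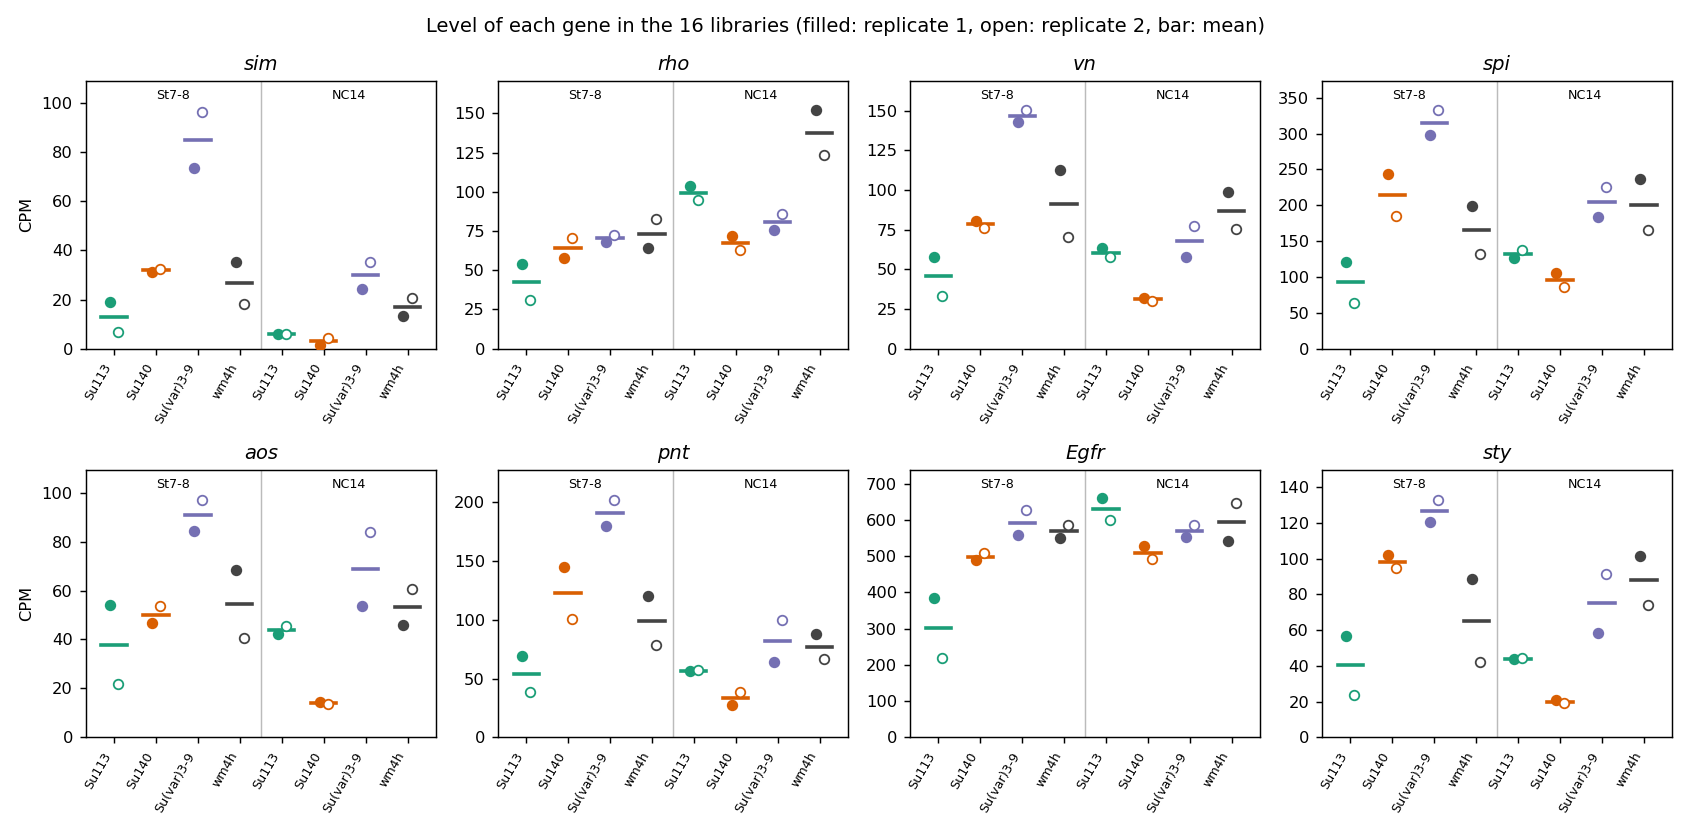
Level of each gene in CPM (y axis, starting at 0) in the 4 genotypes at St7-8 (left) and at NC14 (right). Each point is 1 library, filled for replicate 1 and open for replicate 2, and each bar is the mean of 2 libraries. The Su140 points at NC14 lie below both wm4h points in all 8 panels, and the Su(var)3-9 points at St7-8 lie above both wm4h points in 6 of them.

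Per kilobase of exon, the level of sim was the lowest of the 8 at NC14 in each genotype. In wm4h at NC14, spi stood at 110.6 ± 27.6 CPM per kb (SD, n = 2) and Egfr at 85.4 ± 10.7, followed by rho at 45.8 ± 6.77, and sim stood at 4.78 ± 1.53. The other 4 lay between 12.6 ± 2.43 for pnt and 18.9 ± 3.66 CPM per kb for aos. In Su140 at NC14 the receptor came first, with Egfr at 73.3 ± 3.56 CPM per kb and its ligand spi at 52.5 ± 7.60, whereas sim stood at 0.827 ± 0.618. In Su(var)3-9 at St7-8, spi reached 173.4 ± 13.5 CPM per kb, Egfr 85.2 ± 7.03 and sim 23.9 ± 4.52, close to rho at 23.4 ± 0.991 and sty at 23.3 ± 1.66.

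The first comparison asks whether the mutants differ from the control at NC14. In Su140, 7 of the 8 genes were lower than in wm4h, by between 2.05-fold for rho and 5.76-fold for sim, and Egfr did not pass the test. Of all 12398 genes tested, 6.53% were called lower and 9.56% were called in either direction. The median log2 fold change was -1.35 over the 8 genes and -0.03 over all genes tested. All 8 genes had both Su140 libraries below both wm4h libraries, as did 30.2% of all genes. In RNA from whole embryos, fewer cells of a type and less RNA per cell cannot be told apart.

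The midline regulator sim stood at 1.38 and 4.48 CPM in Su140, from 89 and 346 counts, against 13.1 and 20.8 CPM in wm4h. Its log2 fold change was -2.53 ± 0.57 (SE; adjusted p by edgeR's quasi-likelihood test 0.0202). Both Su140 libraries were far below the control, and the ratio between them was larger for sim than for the other 7 genes.

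Among the genes for ligands and their release, vn stood at 32.1 and 30.4 CPM in Su140, against 98.7 and 75.4 CPM in wm4h (log2 fold change -1.48 ± 0.28, adjusted p by edgeR 0.0106). The Su140 replicates of vn lay close together. The ligand gene spi stood at 105.1 and 85.6 CPM in Su140, against 236.4 and 165.4 CPM in wm4h (-1.08 ± 0.30, adjusted p by edgeR 0.0433). The protease gene rho stood at 71.7 and 62.6 CPM in Su140, against 151.9 and 123.2 CPM in wm4h (-1.03 ± 0.24, adjusted p by edgeR 0.0223). Both genes thus had about the same change on the log2 scale, from a higher level in spi.

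The activator gene pnt stood at 27.9 and 38.6 CPM in Su140, against 87.6 and 66.6 CPM in wm4h (log2 fold change -1.21 ± 0.33, adjusted p by edgeR 0.0397). The genes for inhibitors had larger changes. The secreted inhibitor aos stood at 14.5 and 13.4 CPM in Su140, against 45.9 and 60.5 CPM in wm4h (-1.93 ± 0.38, adjusted p by edgeR 0.0128). The intracellular inhibitor sty stood at 20.6 and 19.1 CPM in Su140, against 101.6 and 74.1 CPM in wm4h (-2.15 ± 0.41, adjusted p by edgeR 0.0111). For aos and sty the distance between the groups was larger than that between the replicates of either group, and the wm4h replicates lay further apart than those of Su140. The receptor gene Egfr stood at 526.6 and 491.6 CPM in Su140, against 540.8 and 646.1 CPM in wm4h (-0.22 ± 0.21, adjusted p by edgeR 0.527), and its groups came close to touching.

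The later-zygotic markers moved with these genes. They summed to 586.2 and 546.4 CPM in Su140 at NC14, against 1489 and 1288 CPM in wm4h, and 10 of the 14 were called lower and 0 higher. Of the markers of the dorsal ectoderm, on the far side of the embryo from the midline, 6 of 9 were called lower and 0 higher, with summed levels of 435.2 and 457.2 CPM in Su140 and 757.8 and 1023 CPM in wm4h. Of the mesoderm markers 2 of 7 were called lower, with summed levels of 597.0 and 529.7 CPM in Su140 and 1051 and 1034 CPM in wm4h. Of these htl also belongs to the 14 later-zygotic markers. Markers of cellularization lay the other way, with sums of 6225 and 5917 CPM in Su140 against 4019 and 4834 CPM in wm4h. Maternal transcripts summed to 3089 and 4170 CPM in Su140 against 2223 and 3158 CPM in wm4h. None of the 5 cellularization markers and 6 maternal transcripts tested was called. With the mean log2 CPM of the later-zygotic markers as a covariate, none of the 8 genes passed (adjusted p 0.505 or more for the 7 called genes), and their log2 fold changes lay between -1.03 for sim and -0.30 for pnt. That fit takes the slope of the score from differences between replicates. The score itself separates the groups, with 3.13 and 3.42 in Su140 and 4.58 and 4.69 in wm4h. The fit therefore cannot decide the part of developmental timing in the result, which was not tested. None of the 7 calls held with each of the 4 libraries left out in turn. The log2 fold changes of the 7 genes stayed below 0 in those fits, between -3.61 for sim and -0.79 for spi. How many calls over all genes were lost in the same fits is not given here.

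In Su113, the other Jasper allele, none of the 8 genes passed at NC14 by edgeR, where 0.936% of all genes did. An unadjusted p under 0.05 by edgeR was found for 2 of the 8, sim and sty, and for 1762 of the 12398 genes tested. DESeq2 called none of the 8 and 765 genes in all. The levels of 7 genes, all but Egfr, were lower in both Su113 libraries than in both wm4h libraries, as for 27.3% of all genes. The largest difference was in sim, with 5.99 and 6.08 CPM in Su113 against 13.1 and 20.8 CPM in wm4h (-1.49 ± 0.55, adjusted p by edgeR 0.242). The inhibitor gene sty stood at 43.7 and 44.1 CPM in Su113, against 101.6 and 74.1 CPM in wm4h (-1.0 ± 0.40, adjusted p by edgeR 0.277). The Su113 replicates were close together for both genes, and the wm4h replicates were not. The later-zygotic markers summed to 1147 and 1121 CPM in Su113.

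The difference between the Jasper alleles was tested itself. At NC14 all 8 genes were lower in both Su140 libraries than in both Su113 libraries, as were 33.5% of all genes, and 1 of the 8 passed, where 2.36% of all genes were called lower. That gene was aos, with 14.5 and 13.4 CPM in Su140 against 42.2 and 45.7 CPM in Su113 (log2 fold change -1.66 ± 0.38, adjusted p by edgeR 0.0417). By adjusted p the next were vn (-0.95 ± 0.28, adjusted p by edgeR 0.078) and sty (-1.15 ± 0.40, adjusted p by edgeR 0.121). The log2 fold change of sim was -1.04 ± 0.55 (adjusted p by edgeR 0.296). The call of aos did not hold with any of the 4 libraries left out (adjusted p by edgeR 0.163 to 0.269), while its log2 fold change lay between -1.74 and -1.59.

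In Su(var)3-9 at NC14 none of the 8 genes passed by edgeR, where 0.331% of all genes did. DESeq2 called 1 of the 8 and 761 genes in all. At an unadjusted p under 0.05 edgeR gave 1790 of the 12398 genes tested and 1 of the 8, rho. It stood at 75.8 and 85.7 CPM in Su(var)3-9, against 151.9 and 123.2 CPM in wm4h (-0.77 ± 0.24, adjusted p by edgeR 0.189), with both mutant libraries below the control, as for 22.0% of all genes. The gene sim lay on the other side, with 24.5 and 35.4 CPM in Su(var)3-9 against 13.1 and 20.8 CPM in wm4h (0.82 ± 0.54, adjusted p by edgeR 0.523). It had both mutant libraries above both control libraries, as for 23.7% of all genes. The other 6 overlapped between the groups.

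**Figure D2:**
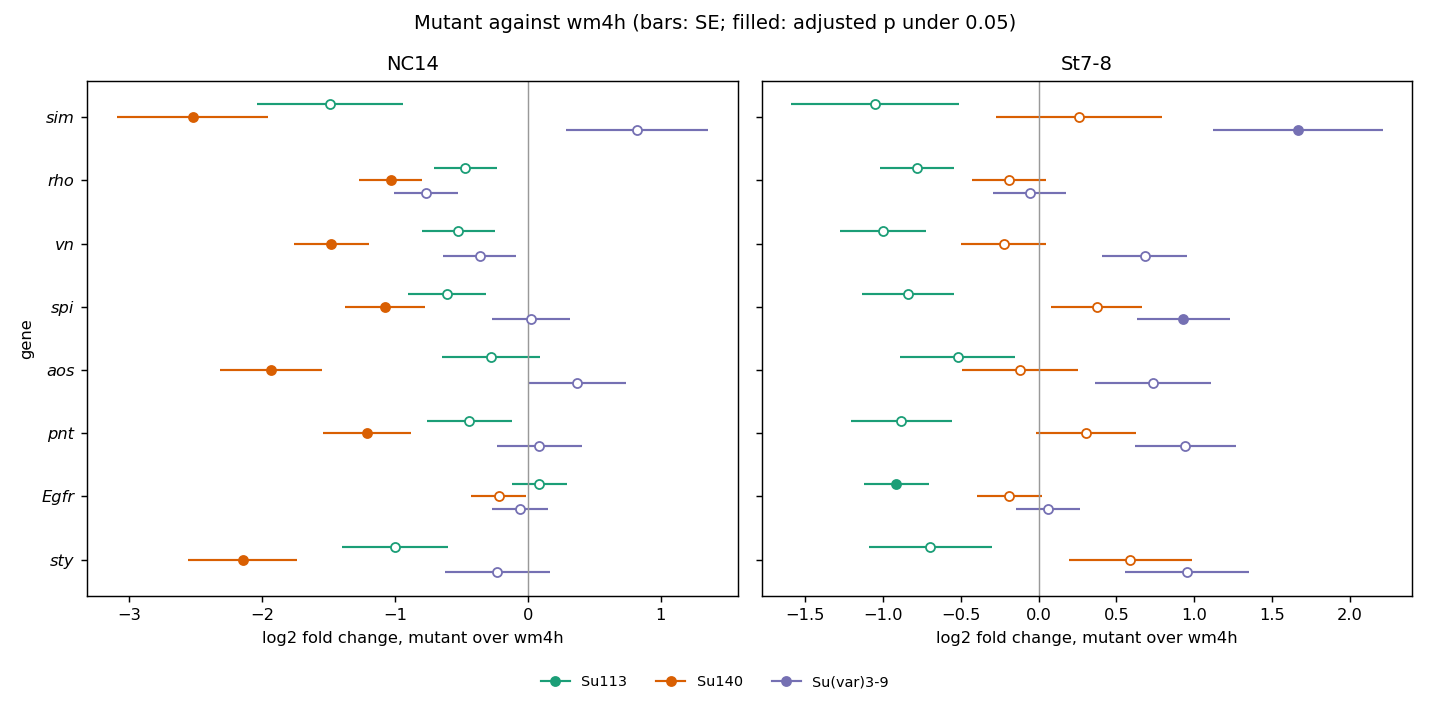
Log2 fold change of each gene in each mutant over wm4h (x axis) at NC14 (left) and St7-8 (right), with the SE as bars. Filled points have an adjusted p under 0.05. At NC14 the filled points are the 7 Su140 genes other than Egfr, and at St7-8 they are Egfr in Su113 and sim and spi in Su(var)3-9.

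At St7-8 the genes sim and spi were higher in Su(var)3-9 than in wm4h, 2 of 8 past the test, where 8.94% of all genes were called higher and 24.8% in either direction. The levels of 6 genes were higher in both Su(var)3-9 libraries than in both wm4h libraries, as were those of 33.9% of all genes, and the median log2 fold change was 0.83 over the 8 and 0.04 over all genes. The midline regulator sim stood at 73.6 and 96.3 CPM in Su(var)3-9, against 35.2 and 18.3 CPM in wm4h (1.67 ± 0.55, adjusted p by edgeR 0.043). The ligand gene spi stood at 297.7 and 332.3 CPM in Su(var)3-9, against 198.9 and 131.7 CPM in wm4h (0.93 ± 0.30, adjusted p by edgeR 0.039). In both genes the first wm4h library lay nearer to Su(var)3-9 than the second.

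The activator gene pnt stood at 180.1 and 202.2 CPM in Su(var)3-9, against 119.9 and 78.9 CPM in wm4h (0.94 ± 0.33, adjusted p by edgeR 0.053). The inhibitor gene sty stood at 120.2 and 132.9 CPM in Su(var)3-9, against 88.8 and 41.9 CPM in wm4h (0.95 ± 0.40, adjusted p by edgeR 0.101). The ligand gene vn stood at 143.1 and 150.3 CPM in Su(var)3-9, against 112.9 and 70.2 CPM in wm4h (0.68 ± 0.28, adjusted p by edgeR 0.0921). These 3 genes had the Su(var)3-9 libraries close together and above the control, and none of them passed. The gene aos was likewise above the control without overlap (0.73 ± 0.37, adjusted p by edgeR 0.173). The log2 fold change was -0.06 ± 0.24 for rho and 0.06 ± 0.21 for Egfr.

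The call of sim ended without the second wm4h library (1.27, adjusted p by edgeR 0.31) and without the second St7-8 libraries of all genotypes (1.06, adjusted p by edgeR 0.316). The call of spi ended likewise without that wm4h library (0.66, adjusted p by edgeR 0.31) and without the second libraries (0.57, adjusted p by edgeR 0.253). More of the 8 genes were called without wm4h replicate 1, which keeps only the wm4h library with cellularization markers at the NC14 level. No gene of the 8 was called without wm4h replicate 2 or without either Su(var)3-9 library. Beside these levels, the later-zygotic markers summed to 1946 and 2130 CPM in Su(var)3-9, against 1424 and 895.1 CPM in wm4h, with 6 of 14 called higher. The cellularization markers were nearly gone in Su(var)3-9, with 4 of 5 called lower, and all 6 maternal transcripts tested of 8 listed were called lower. With the later-zygotic score as covariate sim and spi did not pass (0.52, adjusted p by edgeR 0.646, and 0.35, adjusted p by edgeR 0.607). The score separates these groups too, with 6.57 and 6.05 in Su(var)3-9 and 5.42 and 4.98 in wm4h. That fit cannot decide the part of developmental timing in the result, which was not tested.

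In Su113 at St7-8 all 8 genes had log2 fold changes below 0 against wm4h, with a median of -0.86 over the 8 and -0.09 over all genes. The receptor gene was the 1 of 8 that passed, where 2.85% of all genes were called in either direction. Egfr stood at 383.8 and 218.4 CPM in Su113, against 548.9 and 587.0 CPM in wm4h (-0.92 ± 0.21, adjusted p by edgeR 0.0424). Both Su113 libraries lay below the control, the second far below the first. The same held without overlap for rho, vn, spi and pnt, 5 of 8 genes in all, as for 26.6% of all genes, while sim, aos and sty overlapped between the groups. Of these vn stood at 58.1 and 33.2 CPM in Su113, against 112.9 and 70.2 CPM in wm4h (-1.003 ± 0.28, adjusted p by edgeR 0.0774), and sim at 18.9 and 6.79 CPM in Su113, against 35.2 and 18.3 CPM in wm4h (-1.05 ± 0.54, adjusted p by edgeR 0.234).

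The Egfr difference depended on the second Su113 library. Its log2 fold change was -0.41 (adjusted p by edgeR 0.324) without that library and -1.39 (adjusted p by edgeR 0.00201) without the first. The call ended without the second Su113 library and without either wm4h library, whereas further genes of the 8 were called without the first Su113 library. Leaving out the first keeps only the Su113 library with low later-zygotic markers. Without the second St7-8 libraries of all genotypes the Egfr value was -0.40 (adjusted p by edgeR 0.481).

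In Su140 at St7-8 none of the 8 genes passed by edgeR or by DESeq2, the lowest unadjusted p being 0.163, where 1.15% of all genes passed by edgeR. Their median log2 fold change was 0.07, against -0.05 over all genes. The gene sty stood at 102.0 and 94.5 CPM in Su140, against 88.8 and 41.9 CPM in wm4h (0.59 ± 0.40, adjusted p by edgeR 0.426), and Egfr at 488.4 and 508.8 CPM in Su140, against 548.9 and 587.0 CPM in wm4h. These were the genes whose groups did not overlap, 1 higher and 1 lower, as for 18.2% and 24.5% of all genes. Levels of sim were 31.4 and 32.5 CPM in Su140, inside the range of wm4h. None of the 8 was called without the second wm4h library or without the second St7-8 libraries of all genotypes either. The later-zygotic markers summed to 1486 and 1419 CPM in Su140.

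Between the Jasper alleles at St7-8, 7 of 8 genes, all but aos, were higher in both Su140 libraries than in both Su113 libraries, as were 23.8% of all genes. None of the 8 passed by edgeR, where 2.40% of all genes did. An unadjusted p under 0.05 by edgeR was reached by 7 of the 8 and by 2290 of the 12398 genes tested. DESeq2 called 4 of the 8 and 1351 genes in all. The lowest adjusted p was that of spi, with 243.2 and 184.6 CPM in Su140 against 120.4 and 64.2 CPM in Su113 (1.21 ± 0.30, adjusted p by edgeR 0.0578). The genes sim (1.31 ± 0.54, adjusted p by edgeR 0.222), sty (1.28 ± 0.40, adjusted p by edgeR 0.117) and pnt (1.19 ± 0.33, adjusted p by edgeR 0.0808) had differences of like size. Genes of the 8 were called when Su113 replicate 1 was left out, which keeps only the Su113 library with low later-zygotic markers. No gene of the 8 was called without Su113 replicate 2, either Su140 library or the second St7-8 libraries of all genotypes.

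Between the stages, St7-8 over NC14, 6 of the 8 genes rose in Su140, and each of these had its highest log2 fold change of the 4 genotypes there. Among all genes 17.6% were called higher and 33.6% in either direction. The same 6 genes had both St7-8 libraries above both NC14 libraries, as did 33.7% of all genes, and the median log2 fold change was 1.59 over the 8 and 0.07 over all. The midline regulator sim stood at 31.4 and 32.5 CPM at St7-8, against 1.38 and 4.48 CPM at NC14, a 10.9-fold rise (3.44 ± 0.59, adjusted p by edgeR 0.00366). The inhibitor genes sty (2.31 ± 0.41, adjusted p by edgeR 0.00441) and aos (1.85 ± 0.38, adjusted p by edgeR 0.00805) rose 4.95-fold and 3.60-fold. The activator gene pnt stood at 144.7 and 100.7 CPM at St7-8, against 27.9 and 38.6 CPM at NC14 (1.88 ± 0.33, adjusted p by edgeR 0.0041). Of the ligand genes, vn rose by 1.33 ± 0.28 (adjusted p by edgeR 0.00852) and spi by 1.17 ± 0.30 (adjusted p by edgeR 0.0168) on the log2 scale.

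The 2 genes of Su140 that did not pass hardly differed between the stages. The protease gene rho stood at 58.0 and 70.4 CPM at St7-8, against 71.7 and 62.6 CPM at NC14 (-0.07 ± 0.24), and Egfr at 488.4 and 508.8 CPM at St7-8, against 526.6 and 491.6 CPM at NC14 (-0.03 ± 0.21). The calls of sim and sty held with each of the 4 libraries left out. Without Su140 NC14 replicate 1 the number called was 2, without NC14 replicate 2 it was 3, and without either St7-8 library, or without the second St7-8 libraries of all genotypes, it was 6. The later-zygotic markers moved with the genes, 12 of 14 called higher, with sums of 1486 and 1419 CPM at St7-8 against 586.2 and 546.4 CPM at NC14. With their score, centred within each stage, as covariate none of the 8 passed. A covariate centred in this way leaves out the rise of the score between the stages, so the part of developmental timing was not tested.

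In Su(var)3-9 the genes vn and pnt rose, 2 of 8, where 10.0% of all genes were called higher and 22.9% in either direction. The ligand gene vn stood at 143.1 and 150.3 CPM at St7-8, against 58.0 and 77.4 CPM at NC14 (1.12 ± 0.28, adjusted p by edgeR 0.0146). The activator gene pnt stood at 180.1 and 202.2 CPM at St7-8, against 64.0 and 99.7 CPM at NC14 (1.22 ± 0.33, adjusted p by edgeR 0.0199). The gene sim had the largest difference of the 8 (1.503 ± 0.54) and did not pass (adjusted p by edgeR 0.0666). Both St7-8 libraries were above both NC14 libraries in 6 genes, as for 35.0% of all genes, and below them in rho, as for 31.8%. Without the second St7-8 libraries of all genotypes vn and pnt were still the 2 genes called. Both calls ended without NC14 replicate 1, St7-8 replicate 1 or St7-8 replicate 2. With the later-zygotic score as covariate the values were 0.94 (adjusted p by edgeR 0.0138) for vn and 1.04 (adjusted p by edgeR 0.0179) for pnt. The score was centred within each stage before the fit, so that fit cannot show how far a rise between the stages follows it.

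In Su113 rho and Egfr fell, 2 of 8, where 9.67% of all genes were called lower and 21.8% in either direction. The protease gene rho stood at 53.9 and 31.0 CPM at St7-8, against 103.5 and 94.7 CPM at NC14 (-1.22 ± 0.24, adjusted p by edgeR 0.00856). The receptor gene Egfr stood at 383.8 and 218.4 CPM at St7-8, against 661.4 and 599.1 CPM at NC14 (-1.07 ± 0.21, adjusted p by edgeR 0.00861). Without overlap between the stages, sim was higher, as for 33.4% of all genes, and rho, Egfr and spi were lower, as for 38.0%. The sim levels were 18.9 and 6.79 CPM at St7-8, against 5.99 and 6.08 CPM at NC14 (1.10 ± 0.54, adjusted p by edgeR 0.15). Without the second Su113 library at St7-8 neither rho (-0.74, adjusted p by edgeR 0.103) nor Egfr (-0.58, adjusted p by edgeR 0.0658) passed. Both calls also ended without either NC14 library, and further genes of the 8 were called without St7-8 replicate 1. Without the second St7-8 libraries of all genotypes Egfr (-0.57) and sim (1.79) were called.

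In wm4h edgeR called none of the 8 genes and 0.00% of all genes between the stages, while 1395 genes had an unadjusted p under 0.05, and DESeq2 called 419 genes, 1 of the 8 among them. The protease gene rho stood at 63.9 and 82.4 CPM at St7-8, against 151.9 and 123.2 CPM at NC14 (-0.91 ± 0.24, adjusted p by edgeR 0.324), and was the 1 gene of the set without overlap, as for 14.6% of all genes. The second St7-8 library, whose cellularization markers were at the NC14 level, lay below the first in 6 genes, sim, vn, spi, aos, pnt and sty, and above it in rho and Egfr. Without that library, and without the second St7-8 libraries of all genotypes, none of the 8 was called.

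**Figure D3:**
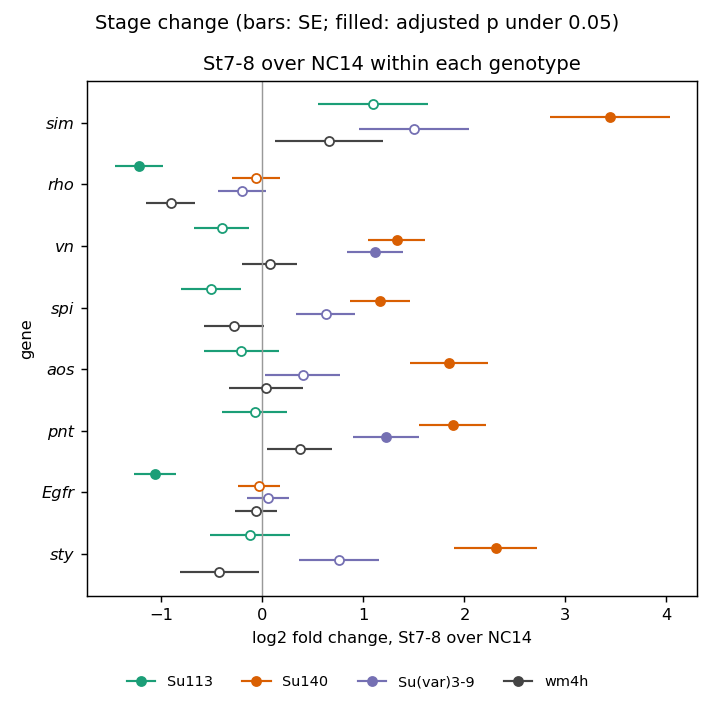
Log2 fold change of each gene at St7-8 over NC14 (x axis) within each genotype, with the SE as bars. Filled points have an adjusted p under 0.05. In Su140 the 6 filled points lie to the right of 1, and in wm4h no point is filled.

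Whether a stage change differed between a mutant and wm4h was tested with the interaction. None of the 8 genes passed by edgeR in any of the 3 mutants, where 0.0887% of all genes passed for Su113, 0.274% for Su140 and 1.84% for Su(var)3-9. In Su140 7 of the 8 genes had an unadjusted p under 0.05 by edgeR, as did 3392 of the 12398 genes tested. DESeq2 called 7 of the 8 and 1865 genes in all. All 8 differences in Su140 lay above 0. The largest were 2.78 ± 0.77 for sim (adjusted p by edgeR 0.0801) and 2.73 ± 0.57 for sty (adjusted p by edgeR 0.0514), followed by aos (1.81 ± 0.53), pnt (1.52 ± 0.46), spi (1.45 ± 0.42) and vn (1.26 ± 0.39), with adjusted p by edgeR of 0.0848 to 0.0933. With each of the 8 libraries left out in turn, genes of the 8 were called without wm4h St7-8 replicate 1 or without Su140 St7-8 replicate 1. None was called without any of the other 6 libraries, wm4h St7-8 replicate 2 among them. In Su113 Egfr had the largest difference (-1.002 ± 0.30, adjusted p by edgeR 0.164), and in Su(var)3-9 it was sty (1.18 ± 0.56, adjusted p by edgeR 0.317) and vn (1.04 ± 0.39, adjusted p by edgeR 0.205). At an unadjusted p under 0.05 by edgeR there was 1 of the 8 genes in Su113, among 2204 genes in all, and 1 in Su(var)3-9, among 2078. DESeq2 called none of the 8 in either, beside 782 and 1003 genes in all. Without the second wm4h library at St7-8, or without the second St7-8 libraries of all genotypes, edgeR called none of the 8 in any of the 3.

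Across the 16 libraries the genes fell into 2 patterns, which are described without a test because the libraries share groups and stages. The log2 CPM of sim, vn, spi, aos, pnt and sty went together, with Pearson correlations of 0.801 to 0.939 between any pair of them. The genes rho and Egfr correlated with each other (0.797) and less with the 6, from 0.009 between rho and sim to 0.58 between Egfr and spi. Both rho and Egfr had their lowest levels in the 2 Su113 libraries at St7-8, and their correlation without these was not computed. The same division held for the later-zygotic score of a library, its mean log2 CPM over the 14 markers. The correlation with the score was 0.945 for pnt, 0.906 for sim, 0.873 for sty, 0.849 for vn, 0.806 for spi and 0.771 for aos, against 0.241 for Egfr and -0.01 for rho. The score was 3.13 and 3.42 in Su140 at NC14, against 4.58 and 4.69 in wm4h at NC14. At St7-8 it was 6.19 and 6.04 in Su140, 6.57 and 6.05 in Su(var)3-9, and 4.92 and 3.59 in Su113, against 5.42 and 4.98 in wm4h.

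**Figure D4:**
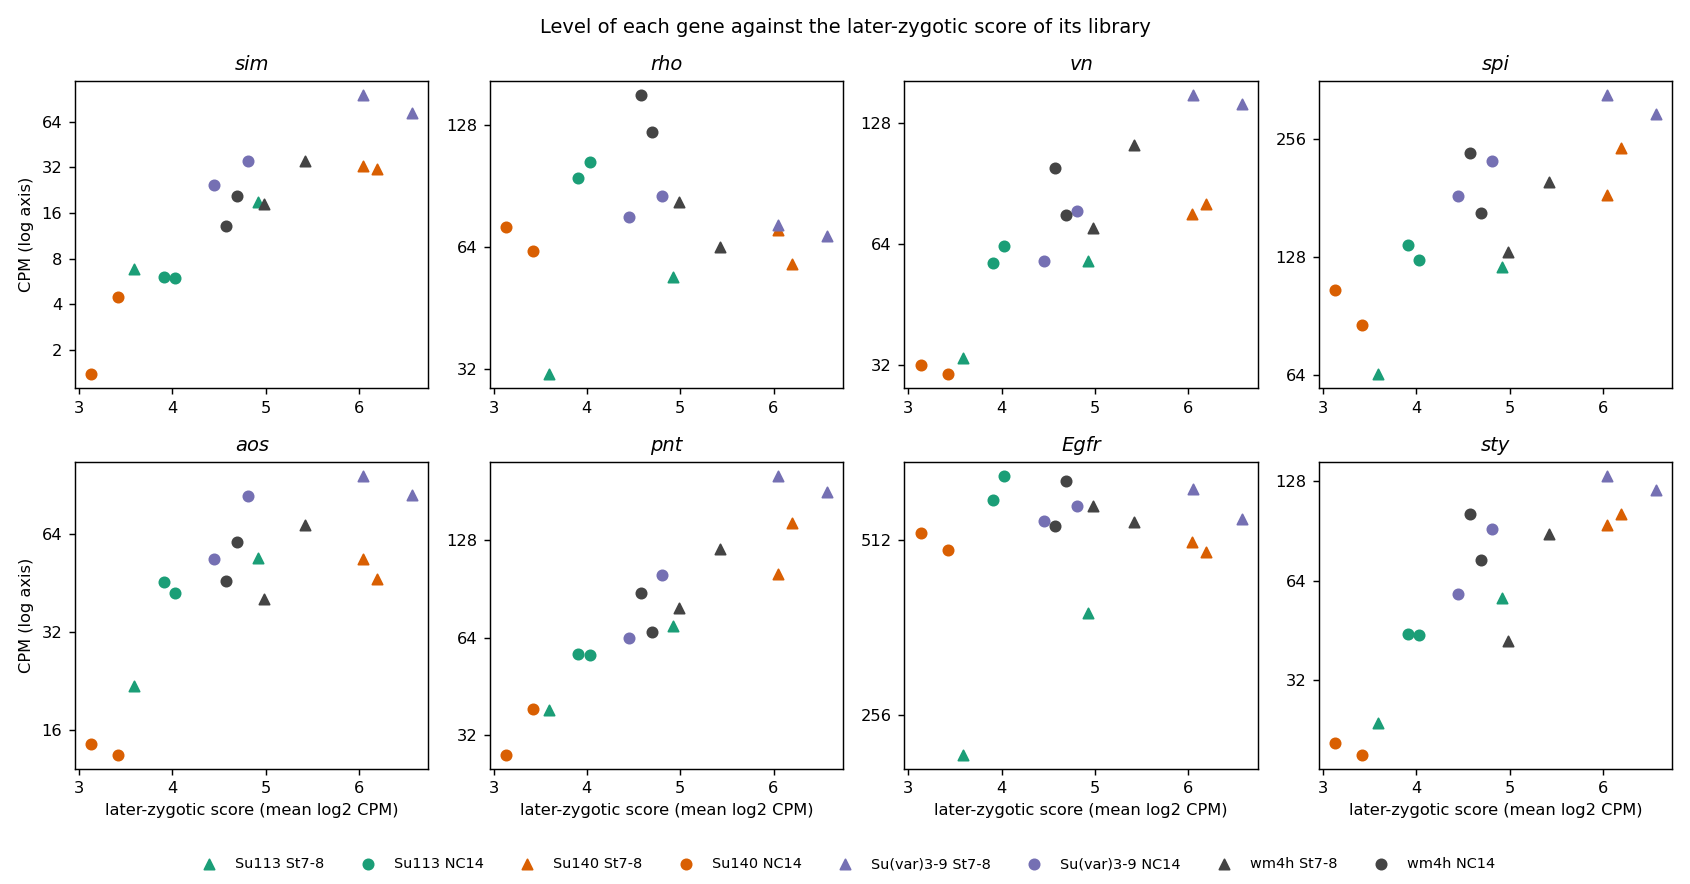
Level of each gene in CPM (y axis, log scale) against the later-zygotic score of its library, the mean log2 CPM of 14 markers (x axis). Triangles are St7-8 libraries and circles NC14 libraries, coloured by genotype. For pnt and sim the 16 points follow the score (Pearson correlations 0.945 and 0.906), and for rho they do not (-0.01).

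Among 6756 genes with a mean of at least 5 CPM, those most like each gene in log2 CPM over the 16 libraries were smal and pnr for sim (Pearson correlations 0.984 and 0.98), E(spl)m8-HLH and side-V for pnt (0.984 and 0.976), and trn and ex for sty (0.978 and 0.976). They were Shrm and Dll for aos (0.981 and 0.978), CG31125 and Antp for vn (0.979 and 0.965), and CG34224 and Galphas for spi (0.968 and 0.96). For rho they were flfl and brk (0.938 and 0.933), and for Egfr tho2 and Chro (0.936 and 0.934). The likest genes of rho and Egfr thus matched them less closely than those of the other 6.

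Of 24 other genes of the EGF receptor pathway 23 were in the table, and all 23 were tested. In Su140 at NC14, 4 were called lower and 0 higher, beside 6.53% of all genes called lower and 9.56% in either direction. Their median log2 fold change was -0.06. The largest was in kek1, which encodes a transmembrane inhibitor of the receptor, with 7.49 ± 0.40 CPM in Su140 against 42.8 ± 0.36 CPM in wm4h (SD, n = 2 each; log2 fold change -2.52 ± 0.37, adjusted p by edgeR 0.00348). The others were edl, which encodes a regulator of the ETS factors (-1.60 ± 0.42, adjusted p by edgeR 0.035), Sos, the Ras exchange factor (-1.10 ± 0.28, adjusted p by edgeR 0.033), and Mkp3, a MAP kinase phosphatase (-0.88 ± 0.21, adjusted p by edgeR 0.0234). The genes of the cascade itself, Ras85D, Raf, Dsor1 and rl, did not pass.

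The gene kek1 was also lower in all 3 mutants at St7-8. It stood at 11.0 ± 0.67 CPM in Su113 (-1.62 ± 0.36, adjusted p by edgeR 0.0394), 5.88 ± 3.95 CPM in Su140 (-2.52 ± 0.37, adjusted p by edgeR 0.00998) and 2.90 ± 0.39 CPM in Su(var)3-9 (-3.54 ± 0.39, adjusted p by edgeR 0.000303), against 33.8 ± 7.61 CPM in wm4h. In Su113 and Su140 it was the 1 gene of the 23 that passed at that stage. At NC14 it stood at 13.2 ± 0.48 CPM in Su113 (-1.70 ± 0.36, adjusted p by edgeR 0.0532) and 19.3 ± 1.49 CPM in Su(var)3-9 (-1.15 ± 0.36, adjusted p by edgeR 0.191). The 3 mutants share the wm4h libraries, so these differences are not independent of each other.

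In Su(var)3-9 at St7-8, 4 of the 23 were called higher and 8 lower, against 8.94% and 15.9% of all genes, with a median of 0.00 on the log2 scale. The 3 with the lowest adjusted p were kek1, csw and cic. The phosphatase gene csw stood at 20.6 ± 15.3 CPM in Su(var)3-9 against 269.2 ± 146.1 CPM in wm4h (-3.71 ± 0.53, adjusted p by edgeR 0.000818), and the repressor gene cic at 251.5 ± 26.8 CPM in Su(var)3-9 (-1.14 ± 0.17, adjusted p by edgeR 0.000868). Those called higher were edl (1.34 ± 0.41, adjusted p by edgeR 0.0328), the adaptor genes Shc (0.98 ± 0.19, adjusted p by edgeR 0.004) and dos (0.62 ± 0.16, adjusted p by edgeR 0.0172), and aop, an ETS repressor (0.74 ± 0.17, adjusted p by edgeR 0.00978). At NC14 none of the 23 was called in Su113 or in Su(var)3-9.

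**Figure D5:**
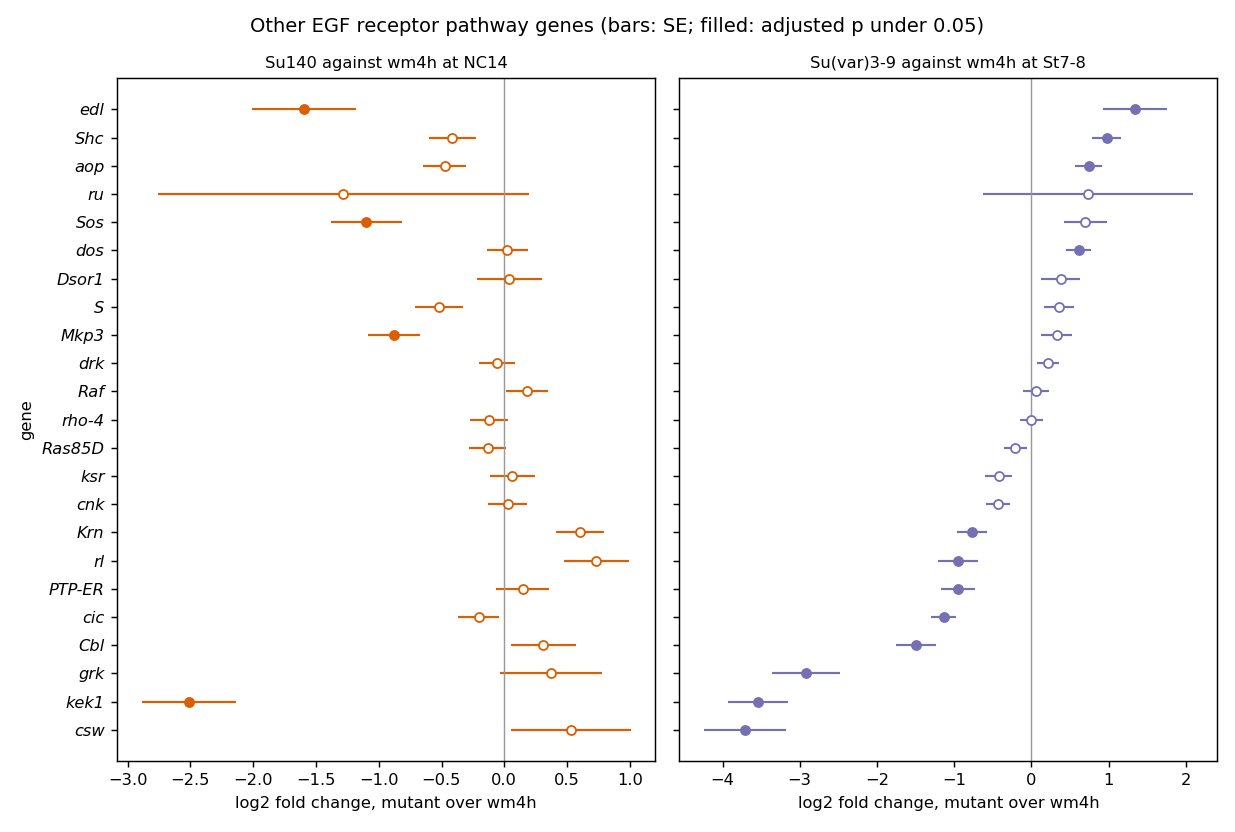
Log2 fold change over wm4h (x axis, with the SE as bars) of the 23 other EGF receptor pathway genes tested (y axis, in the order of the right panel), for Su140 at NC14 (left) and Su(var)3-9 at St7-8 (right). Filled points have an adjusted p under 0.05, 4 on the left, all below 0, and 12 on the right, 4 above and 8 below 0.

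Genes that act upstream of sim or mark the ventral neurectoderm formed a list of 19, of which 18 were in the table and tested. In Su140 at NC14, 7 were called lower and 0 higher, beside 6.53% of all genes called lower and 9.56% in either direction. The median log2 fold change was -0.82 over the 18 and -0.03 over all genes tested. The 3 with the lowest adjusted p were E(spl)m5-HLH, a Notch target gene (5.20 ± 0.29 CPM in Su140 against 35.6 ± 7.61 CPM in wm4h, -2.78 ± 0.44, adjusted p by edgeR 0.00459), ind, a gene of the intermediate neural column (3.01 ± 0.45 CPM in Su140 against 20.2 ± 3.79 CPM in wm4h, -2.75 ± 0.50, adjusted p by edgeR 0.00955), and brk (-1.003 ± 0.24, adjusted p by edgeR 0.0261). The midline gene sli, a target of Sim, stood at 583.3 ± 44.7 CPM in Su140 against 1208 ± 74.3 CPM in wm4h (-1.05 ± 0.30, adjusted p by edgeR 0.0494). It is named here after its values were seen, and it had the highest adjusted p of the 7 called. Of the same list oc, mfas and wntD were not called, and a link between the levels of sim and sli was not tested. The Notch factor gene Su(H) and the receptor gene Tl did not pass there (-0.01 ± 0.20 and 0.32 ± 0.27). The genes dl, twi and N of the same list were not called there either.

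In Su(var)3-9 at St7-8, 1 of the 18 was called higher and 3 lower, beside 8.94% and 15.9% of all genes, so these counts were near the background. The higher one was E(spl)m5-HLH, with 89.0 ± 4.53 CPM in Su(var)3-9 against 33.2 ± 10.9 CPM in wm4h (1.42 ± 0.41, adjusted p by edgeR 0.0256). The lower ones were Tl (-2.24 ± 0.28, adjusted p by edgeR 0.000473), Su(H) (-1.45 ± 0.21, adjusted p by edgeR 0.000769) and dl (-2.57 ± 0.62, adjusted p by edgeR 0.0113), genes of the dorsoventral and Notch pathways whose transcripts are also laid down by the mother. None of the 18 was called in Su113 or Su140 at St7-8, nor in Su113 or Su(var)3-9 at NC14.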

How the data were processed

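The authors deposited 1 table of whole-number counts per gene and library, without normalization. The build dm6 and DESeq2 are named in the submitters' processing notes, and the labels' protocols describe a stranded total RNA kit. For the aligner, the counter, its strand setting and the gene annotation, the version and name are not given in the sources used here. Symbols and coordinates came from the Ensembl annotation of the same assembly, which matched 17626 of 17753 identifiers.

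All counts were fitted at once with edgeR 4.0.16 (R 4.3.3, limma 3.58.1): filterByExpr kept 12398 genes and removed 5355, TMM scaling, 8 group means, glmQLFit and glmQLFTest, 2-sided, Benjamini-Hochberg adjustment over all genes kept, threshold 0.05. Residual degrees of freedom were 8 and the common coefficient of variation was 0.401. The model gave 15 contrasts. SE is the log2 fold change divided by the square root of F. Log2 CPM used a prior count of 2. The exonic length per gene is the union of its exons. The fit was tested on simulated counts. Tables used python 3.11.15, pandas 2.3.3 and numpy 2.4.6, and figures matplotlib 3.10.9.

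Alternatives were DESeq2 1.42.0, its size factors (RLE), no filter, a replicate block, a later-zygotic covariate, fewer groups and each library left out. The later-zygotic covariate was the score of a library less the mean score of its stage. The labels do not state that replicates came from separate collections, so p-values measure the spread between these pools, which may be technical in part. Floors of 3 counts cover counting error only, since reads carried no molecular identifiers. Fold changes with SE and adjusted p are given for each gene past the threshold or with a log2 fold change of at least 1, and for some others beside them. Of each other list the genes named are the 3 with the lowest adjusted p, or all where 5 or fewer passed, unless said otherwise. The genes and lists were chosen with earlier results of these data known. The sequences of the genes were not used here.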

Additional observations from a re-analysis of the deposited data

Results flagged for a closer look

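The 2 Jasper alleles differed in aos at NC14 by a test of the difference itself. The log2 fold change of Su140 over Su113 was -1.66 (adjusted p by edgeR 0.0417), with 14.5 and 13.4 CPM in Su140 against 42.2 and 45.7 CPM in Su113. The difference between the alleles was lost with each single library left out (adjusted p by edgeR 0.163 to 0.269). The later-zygotic markers summed to 586.2 and 546.4 CPM in Su140 and to 1147 and 1121 CPM in Su113, and their part in this difference was not tested. With their score as covariate the value was -1.05 (adjusted p by edgeR 0.211). That fit cannot decide their part, because the score separates the 2 alleles.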

How the results depend on the processing

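The number of the 8 genes called in each comparison was followed through the alternatives, together with 42 log2 fold changes (501 alternative values: 374 kept direction and side of the threshold, 89 no longer passed, 32 newly passed and 6 changed sign). With the later-zygotic score as covariate the count was 0, in place of 7 for Su140 at NC14, 1 for Su113 and 2 for Su(var)3-9 at St7-8, 2 and 6 for the stage changes of Su113 and Su140, and 1 between the alleles at NC14. The 6 sign changes were also under it: for the stage change in Su140 minus that in wm4h vn became -0.035, aos -0.133 and pnt -0.007, and for Su140 against Su113 at St7-8 sim became -0.642, pnt -0.033 and sty -0.244. The cause was not tested. The slope of the score in that fit comes only from differences between replicates, so lost calls there cannot tell genotype from timing. Because the score was centred within each stage, its rise between the stages was not taken out of the stage changes.

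DESeq2 called 1 in place of 0 for Su(var)3-9 at NC14 and for the stage change in wm4h, 2 in place of 1 for Su113 at St7-8, 4 in place of 2 for Su(var)3-9 at St7-8, 7 in place of 0 for the stage difference of Su140, and 3 in place of 1 at NC14 and 4 in place of 0 at St7-8 between the alleles. Over all genes it called 761, 419, 1390, 4207, 1865, 1765 and 1351 in these comparisons, in the same order. RLE size factors gave 0 in place of 1 for Su113 at St7-8 and 1 in place of 0 for the stage difference of Su140. Without a filter on low counts 1 gene in place of 0 was called for that difference and between the alleles at St7-8. Without the second St7-8 libraries the count was 0 for Su113 and for Su(var)3-9 at St7-8 and 3 between the alleles at NC14. With only the libraries of the groups compared it was 0 for Su113 and for Su(var)3-9 at St7-8, 0 for the stage change in Su113, 5 for that in Su(var)3-9 and 3 between the alleles at NC14. Except for DESeq2, calls over all genes are not set beside the counts of these alternatives or of the covariate fit. Those counts do not show whether other genes moved likewise.

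With each library left out in turn the count ran from 0 to 3 for Su140 at NC14, 0 to 7 for Su113 and 0 to 5 for Su(var)3-9 at St7-8, 0 to 4, 2 to 6 and 0 to 2 for the stage changes of Su113, Su140 and Su(var)3-9, 0 to 1 and 0 to 6 for the stage differences of Su113 and Su140 from wm4h, 0 to 0 between the alleles at NC14 and 0 to 8 at St7-8. A lone library left in a group was assumed to vary like the other groups. These counts show only how far the calls depend on single libraries, since the numbers of all genes called in the same fits are not set beside them.

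The replicate numbers do not pair the libraries: the correlation of same-numbered deviations ran from -0.504 to 0.33 over the comparisons. With a replicate block the count was 0 for Su113 at St7-8, 1 for Su(var)3-9 at St7-8, 0 between the alleles at NC14 and 6 for Su140 at NC14. Calls over all genes with that block are not given. With the numbers crossed, an alternative added after the data were seen, edgeR called 280 genes and 0 of the 8 for Su113 at St7-8, and 100 genes and 0 of the 8 for Su140.

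With 2 libraries per group, 1 library can decide a call: of the 21 called differences, only sim and sty in the stage change of Su140 held with each library left out. Across all genes the replicate difference in log2 CPM had an SD of 0.924 to 1.55 in the St7-8 groups and of 0.567 to 0.852 in the NC14 groups. Over the 8 genes alone that SD was 0.097 to 0.501 at St7-8 and 0.11 to 0.655 at NC14. An SD across genes leaves out any shift between replicates that the 8 genes share. Counting error is small beside the spread over all genes: the lowest count of the 8 genes was 89, for sim in Su140 at NC14.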
